A study of Rattus norvegicus with 2 samples.

Results

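The genes described here encode the extracellular side of Wnt signalling: the Wnt ligands, the proteins that export them, their receptors and co-receptors, and the secreted proteins that keep ligand from receptor. They were taken by gene symbol (the Wnt, Fzd, Sfrp and Dkk families with a number, and Lrp5, Lrp6, Ror1, Ror2, Ryk, Wif1, Porcn and Wls), a rule that uses names and no level, and 44 of the 18171 genes measured met that rule. The samples were 2 single colonies of C6, a rat glioma line used as a model of malignant glia, called colony No.4 and colony No.8. Each is a single colony-derived population, so it stands for 1 clone of the line and not for C6 as a whole. Both were grown in DMEM with 10% FBS. The labels call both undifferentiated, yet attach to both the same drug text, CHIR99021 at 20 µM and forskolin at 100 µM over 35 days. Whether the RNA was taken before or after the drugs is not settled by the labels, and no untreated or treated partner was analysed. CHIR99021 inhibits the kinase GSK3, which marks beta-catenin for breakdown, and forskolin raises cyclic AMP.

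Wnt ligands are lipid-modified secreted proteins. The acyltransferase Porcupine attaches the lipid and the carrier Wntless brings the ligand to the cell surface. There a ligand that binds a Frizzled receptor together with LRP5 or LRP6 stabilises beta-catenin, whereas a ligand that binds ROR1, ROR2 or RYK mostly signals without beta-catenin, to the cytoskeleton and cell polarity. Secreted Frizzled-related proteins and WIF1 bind the ligand, and most Dickkopf proteins bind LRP5 and LRP6. In the brain the pathway governs the patterning and expansion of neural progenitors, and in glioma it has been studied for growth and invasion.

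RNA was measured on 1 whole-transcript array per colony, so every value below is a single measurement, no test, p-value or standard error could be computed, and the number of arrays limits the precision. Values are the authors' deposited log2 levels. They rank a gene between the colonies but not one gene against another, because each gene has probes of its own. A gene was counted as past the floor when at least 1 colony had it at 4.33 or more, which is the median over every value in the deposited table. The 99th percentile of 1184 olfactory receptor genes, 5.67, served as a stricter guide to background. A difference is the level in No.8 minus that in No.4, and a size of 1 is 2-fold. Of the markers fixed for the glial identity of the line, Vim, Nes, S100b and Sox2 were past 5.67 in both colonies, Gfap was at 4.11 in No.4 and 5.17 in No.8, and Slc1a3 was below the floor in both. Of the 4 microglial and 3 endothelial markers measured, 0 reached the floor.

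Most receptors and both export genes were read above the stricter guide to background, and no ligand was. Of the 14 receptor and co-receptor genes 9 passed 5.67 in at least 1 colony, as did Wls and Porcn, whereas 0 of the 19 Wnt ligands and 1 of the 9 secreted inhibitors did. These counts say which genes were read above a common guide and do not compare amounts of RNA between genes. Of the 44 members, 26 were past the floor (59.1%, beside 60.9% of all measured genes), and 12 were past 5.67 in at least 1 colony (44.9% of all measured genes were). The 12 were Porcn, Wls, Fzd1, Fzd2, Fzd5, Fzd7, Fzd8, Lrp5, Lrp6, Ror1, Ryk and Sfrp4. Ror1, Fzd1 and Wnt5a were higher in No.8 by 2-fold or more, 3 of the 26 members past the floor, where 2.91% of all genes past the floor were. Wnt5a passed the floor only through No.8 and differed by at least 1.05-fold counted from the floor, so its place in that count depends on a level below the floor. A difference of this size toward No.4 was found in 0 members, beside 2.57% of all genes past the floor, and 5.47% of genes were 2-fold apart in either direction. Of the 12 members past 5.67, 2 were 2-fold apart (Ror1 and Fzd1), beside 6.35% of all genes past 5.67. Ror1 and Fzd1 passed 5.67 only through No.8, the colony where they were high. Counted from 5.67, the fold of Ror1 was at least 2.79, still past 2-fold. That of Fzd1 was at least 1.44, so the place of Fzd1 in that count depends on a level under 5.67. The counts of 3 and 2 are small numbers of genes to read against those shares.

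**Figure D1:**
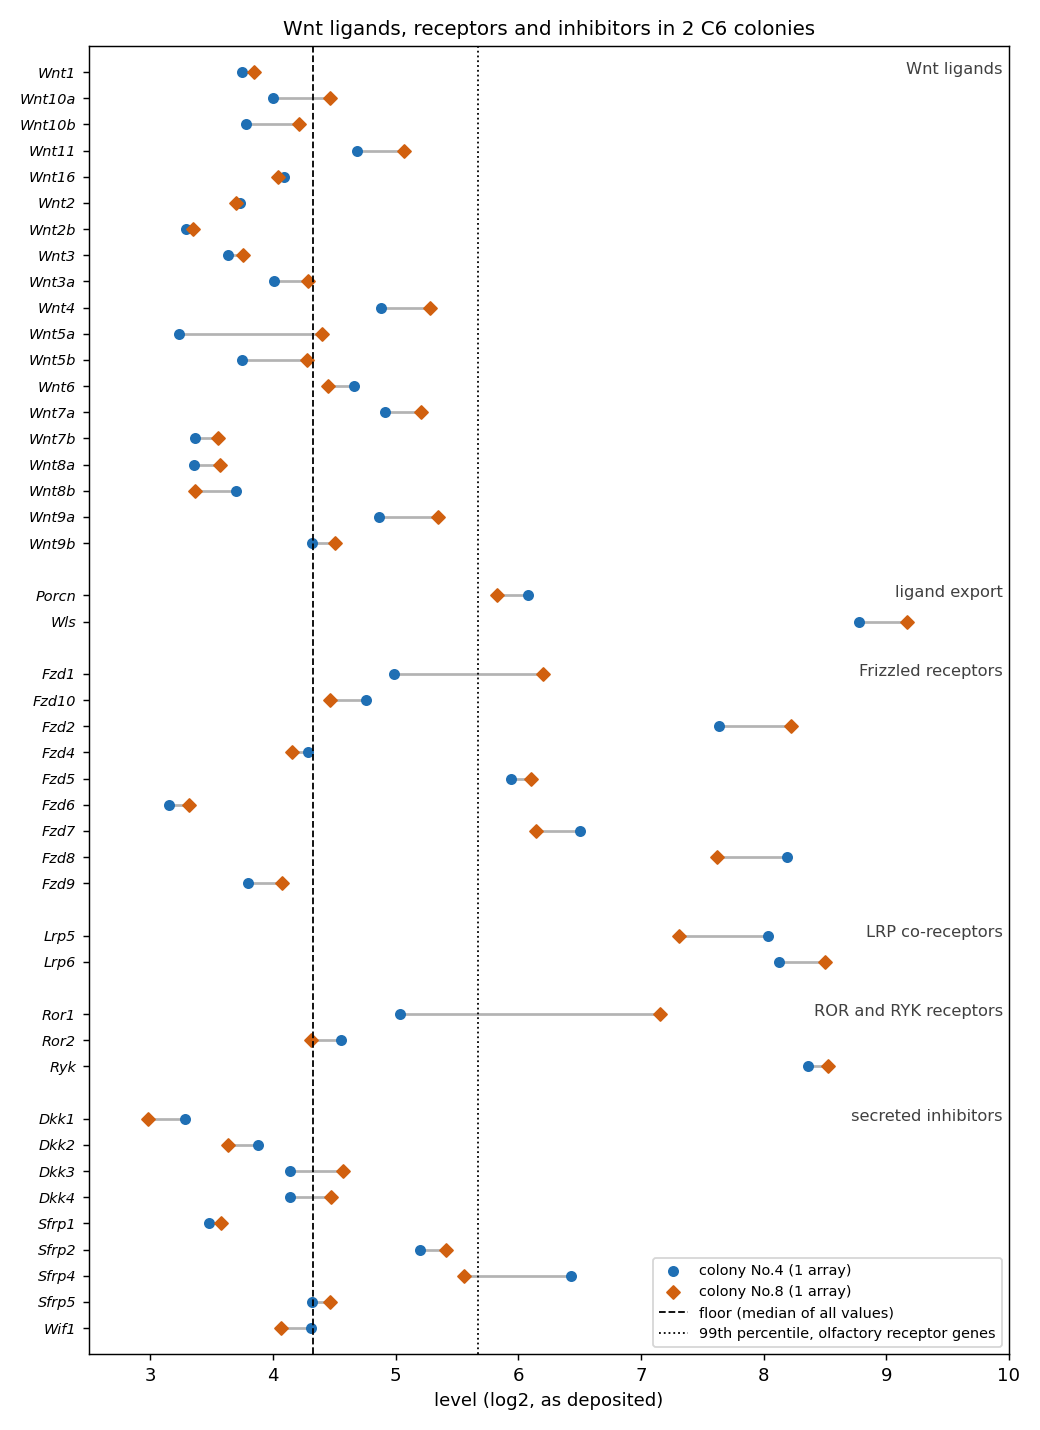
Deposited log2 level (horizontal axis) of each of the 44 members in colony No.4 (blue circles) and colony No.8 (orange diamonds), 1 array each, with a grey line joining the colonies. The dashed line is the floor of 4.33 and the dotted line the 99th percentile of olfactory receptor genes, 5.67; every ligand lies left of the dotted line, and Ror1 has the longest grey line.

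Ror1 stood out among the members. It encodes a receptor tyrosine kinase-like protein of the embryo that binds WNT5A and is scarce in most adult tissues. Its log2 level was 5.03 in No.4 and 7.15 in No.8. No.8 was thus the high colony and No.4 lay between the floor and 5.67. The difference of 2.12 log2 units is 4.35-fold, rank 52 of the 11070 genes past the floor when ordered from the largest difference toward No.8. Counted from 5.67 as the lowest readable level, the fold was at least 2.79. In bulk RNA such as this, more cells with the transcript and more transcript per cell cannot be told apart.

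Fzd1, a Frizzled receptor, was the next. Its log2 level was 4.98 in No.4 and 6.20 in No.8. The difference was 1.22 log2 units, 2.32-fold, rank 208 of 11070. As with Ror1, the level in No.4 was past the floor but under 5.67, and counted from there the fold was at least 1.44, so the 2-fold size was not kept.

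Wnt5a, a ligand that acts mainly without beta-catenin and binds the ROR receptors, had a log2 level of 3.24 in No.4 and 4.40 in No.8. The deposited difference of 1.16 log2 units is 2.24-fold (rank 234 of 11070), but No.4 was below the floor and No.8 just above it. Counted from the floor, the fold was at least 1.05, and counted from 5.67 there was none to give. Wnt5a was in this way the member closest to the floor among the 3, and the next differences in size, those of Sfrp4 and Lrp5, were under 2-fold and pointed to No.4.

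The 250 bases before the annotated start of these 3 genes are printed because they are the members that were 2-fold apart in the same direction; CpG dinucleotides are in capitals. They are RefSeq sequences of build GRCr8, plus strand, at chr5:119859494-119859743 (Ror1), chr4:30264824-30265073 (Fzd1) and chr16:3703415-3703664 (Wnt5a), all upstream of the first exon. The start used in C6 cells was not measured.
Ror1: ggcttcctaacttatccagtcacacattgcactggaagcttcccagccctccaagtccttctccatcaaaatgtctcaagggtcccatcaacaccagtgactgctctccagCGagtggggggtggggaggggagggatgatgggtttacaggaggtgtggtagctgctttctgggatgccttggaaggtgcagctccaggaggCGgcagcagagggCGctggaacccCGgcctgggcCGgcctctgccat
Fzd1: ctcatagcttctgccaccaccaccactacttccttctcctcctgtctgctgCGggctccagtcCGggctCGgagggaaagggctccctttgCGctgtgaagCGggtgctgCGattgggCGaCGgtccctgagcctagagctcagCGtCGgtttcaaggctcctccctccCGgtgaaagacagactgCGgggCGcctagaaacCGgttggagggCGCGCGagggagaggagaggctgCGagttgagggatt
Wnt5a: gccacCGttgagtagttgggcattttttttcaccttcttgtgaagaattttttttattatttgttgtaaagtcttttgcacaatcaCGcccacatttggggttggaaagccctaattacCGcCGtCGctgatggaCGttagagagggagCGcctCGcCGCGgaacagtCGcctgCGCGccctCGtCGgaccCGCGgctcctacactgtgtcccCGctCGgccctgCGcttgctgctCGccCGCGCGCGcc

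The sequences differ in kind. The Ror1 window holds 5 CpG, the median over all 33469 promoter windows of that length, and none of the 33 windows found for members holds fewer. The Fzd1 window holds 18 and the Wnt5a window 25, beside a median of 21 over the members' windows; windows were found for 32 of the 44 members, Wls with more than 1. The core letters bound by LEF and TCF factors, CTTTGA, were searched on both strands. They are in none of the 3 windows printed above, in 3 of the 33 members' windows (9.09%, those of Dkk1, Fzd7 and Wnt8a) and in 13.9% of all windows. The longer form CTTTGATC, which contains the core, was in 0 of the 33 and in 0.64% of all windows. Fzd7 is the only one of those 3 genes past the floor, and its window (GRCr8, plus strand, chr9:68425288-68425537) is printed with the core in capitals on either strand.
Fzd7: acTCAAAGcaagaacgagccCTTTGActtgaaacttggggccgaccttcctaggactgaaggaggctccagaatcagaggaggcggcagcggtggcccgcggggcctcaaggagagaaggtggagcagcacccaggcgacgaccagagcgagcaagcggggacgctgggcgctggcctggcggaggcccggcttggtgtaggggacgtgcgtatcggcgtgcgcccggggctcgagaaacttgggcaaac

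Ror2 and Ryk, the other receptors that act beside the Frizzleds, did not follow Ror1. Ror2, the closest relative of Ror1, had a log2 level of 4.56 in No.4 and 4.31 in No.8, with No.4 just past the floor and No.8 just under it. Ryk, an atypical kinase-like receptor with a WIF domain, was at 8.36 and 8.53, far past 5.67 in both colonies, with a difference of 0.17. Of the 3 receptors of this kind, 1 was thus 2-fold apart, 1 was bright and close to equal, and 1 lay at the floor.

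The Frizzled receptors went in both directions. Of the 9, 5 were higher in No.8 (55.6%, near the 52.2% of all measured genes) and 4 in No.4. The median difference was 0.16 log2 units over the 9, beside 0.03 for all measured genes. Over the 6 past the floor it was -0.07, beside 0.04 for all genes past the floor. Besides Fzd1, the larger differences were in receptors that were bright in both colonies. Fzd2, a receptor used by WNT5A among other ligands, was at a log2 level of 7.64 in No.4 and 8.23 in No.8, 1.51-fold higher in No.8. Fzd8, a receptor of the beta-catenin branch, had log2 levels of 8.19 (No.4) and 7.62 (No.8), 1.49-fold higher in No.4. Both were far past 5.67 in each colony, and their differences were the same counted from there. Fzd7, a receptor of stem and progenitor cells, was at 6.50 and 6.15, and Fzd5 at 5.94 and 6.10. Fzd10 was at 4.76 and 4.47, past the floor but under 5.67. Fzd4, Fzd6 and Fzd9 were below the floor in both colonies, between 3.16 and 4.29. Fzd3 is not analysed here.

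The 2 LRP co-receptors, which Frizzleds need to stabilise beta-catenin, were bright in both colonies and also differed in opposite directions. Lrp5 was at a log2 level of 8.03 in No.4 and 7.31 in No.8, a difference of -0.73 or 1.66-fold higher in No.4. Lrp6 was at 8.12 and 8.50, a difference of 0.38 or 1.30-fold higher in No.8. A second, dimmer array feature carries the symbols of both Lrp5 and Tvp23b and was left out of the gene values. It read 5.13 in No.4 and 4.92 in No.8, lower in No.8 as the Lrp5 feature was, by 0.21 log2 units.

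**Figure D2:**
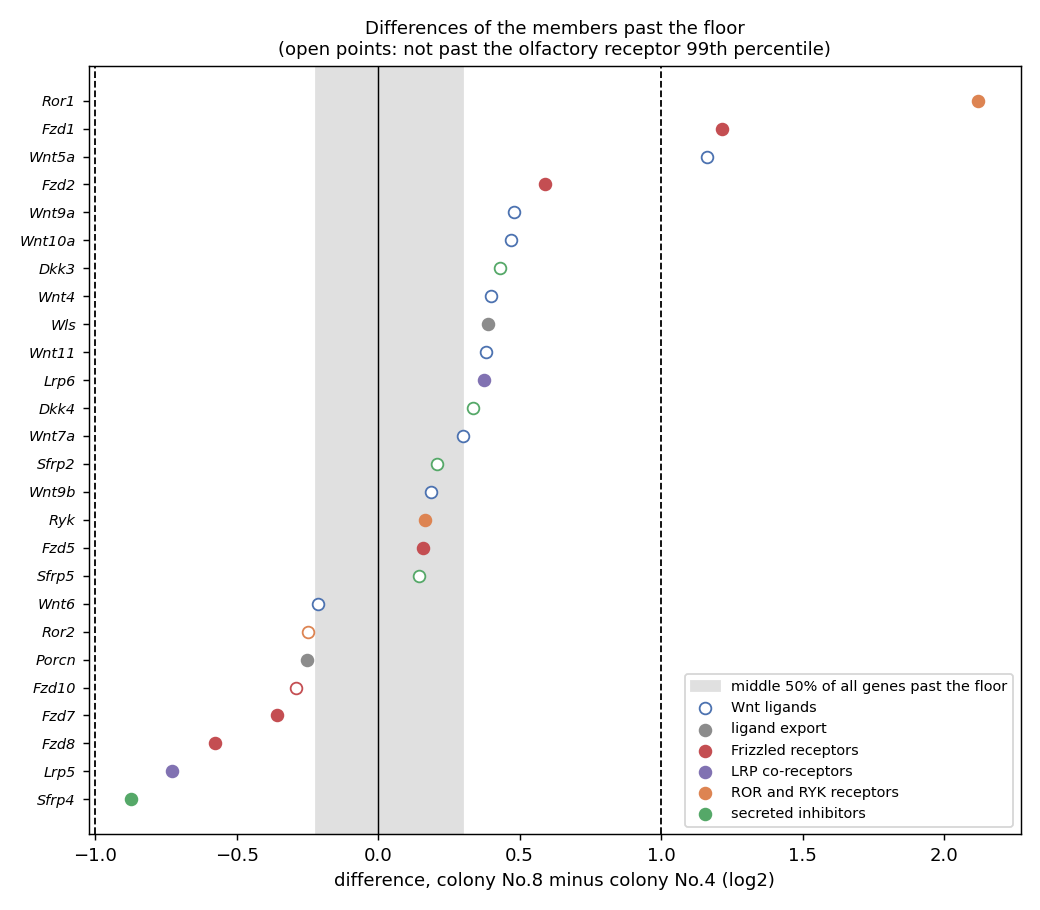
Difference between the colonies (No.8 minus No.4, log2, horizontal axis) for the 26 members past the floor, 1 point per gene, coloured by role; open points are genes not past 5.67 in either colony. The dashed lines mark 2-fold and the grey band the middle 50% of all 11070 genes past the floor (-0.22 to 0.30); Ror1, Fzd1 and Wnt5a lie right of the upper dashed line and no member lies left of the lower one.

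The genes that let a cell release Wnt ligands were read in both colonies. Wls, the carrier Wntless, was at a log2 level of 8.78 in No.4 and 9.17 in No.8, a difference of 0.39. Porcn, the acyltransferase Porcupine, was at 6.08 and 5.83, a difference of -0.25. Both differences were under 1.5-fold, and they had opposite signs.

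The ligands were dim. Of the 19 Wnt genes, 8 were past the floor and 0 past 5.67, and their levels over both colonies ran from 3.24 to 5.34. The 8 past the floor were Wnt4, Wnt5a, Wnt6, Wnt7a, Wnt9a, Wnt9b, Wnt10a and Wnt11. Among them, Wnt9a was at a log2 level of 4.86 in No.4 and 5.34 in No.8. Wnt4, a ligand of kidney and gonad development, was at 4.88 and 5.28. Wnt7a, a ligand of brain vessels and synapses, was at 4.91 and 5.21. Wnt11, a ligand of cell movement, was at 4.69 and 5.07. These 4 were past the floor in both colonies and higher in No.8, each by under 1.5-fold. Wnt6 was at 4.66 and 4.45, the only one of the 8 that was higher in No.4. Its neighbour in the genome, Wnt10a, was at 4.00 and 4.47, and Wnt9b at 4.32 and 4.51, so both crossed the floor in No.8 only.

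The remaining 11 ligands, below the floor in both colonies, were Wnt1, Wnt2, Wnt2b, Wnt3, Wnt3a, Wnt5b, Wnt7b, Wnt8a, Wnt8b, Wnt10b and Wnt16. Their log2 levels ran from 3.29 to 4.29 and their differences from -0.34 (Wnt8b) to 0.53 (Wnt5b). They include Wnt1 and Wnt3a, the classic ligands of the beta-catenin branch, at 3.75 and 3.85 and at 4.01 and 4.29. No detection call was used here, so such levels do not separate a faint transcript from background, and neither absence nor presence of the ligand RNA is stated.

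Of the 19 ligands 15 were higher in No.8 (78.9%) and 4 in No.4, with a median difference of 0.21 log2 units, beside 52.2% of all measured genes and a median of 0.03. Over all 44 members, 29 were higher in No.8 (65.9%) and the median difference was 0.16. Of the 12 members past 5.67, 7 were higher in No.8 and 5 in No.4. Among these 12, 2 passed 5.67 in No.8 only and 1 in No.4 only, which fixes their sign. The split of the 12 is therefore not set against that of the ligands. For the same reason directions are not counted over the 26 past the floor. Of the 26, 6 passed the floor in No.8 only and 1 in No.4 only. The ligand and member counts were the same after centring, quantile normalization and a loess on level, while the share of all genes higher in No.8 lay between 49.6% (loess) and 56.7% (quantile) under these scalings. Most of the ligands' differences fall within the range where the arrays were read near background, and no replicate shows how far such a reading moves between arrays of the same colony.

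Of the secreted inhibitors, 5 of 9 were past the floor and 0 reached 2-fold. Sfrp4, a secreted Frizzled-related protein, was at a log2 level of 6.43 in No.4 and 5.56 in No.8. The difference of -0.87 log2 units (1.83-fold higher in No.4, at least 1.69-fold counted from 5.67) was the largest toward No.4 among the 44 members, and No.4 was the only colony in which an inhibitor passed 5.67. Sfrp2 was at 5.20 and 5.41, and Sfrp5 at 4.32 and 4.47. Dkk3, a divergent Dickkopf protein, was at 4.14 and 4.57, and Dkk4 at 4.14 and 4.48. These 4 were higher in No.8 by under 1.5-fold and were all under 5.67. Sfrp1, Dkk1, Dkk2 and Wif1 were below the floor in both colonies, between 2.98 and 4.31; Dkk1, both an LRP6 antagonist and a beta-catenin target, was at 3.28 and 2.98.

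With 1.5-fold in place of 2-fold, the members past the floor that differed were Ror1, Fzd1, Wnt5a and Fzd2 toward No.8 and Sfrp4 and Lrp5 toward No.4. These 4 and 2 of 26 compare with 9.87% and 7.93% of all genes past the floor. The middle 50% of the differences over all 44 members ran from -0.22 to 0.38 log2 units, beside -0.18 to 0.25 for all measured genes.

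The genome neighbours of the 3 members at 2-fold, and of Sfrp4 and Lrp5, were read from the RefSeq gene order. This description was added after the members' values had been seen. Of the 10 neighbouring genes past the floor around Ror1, 5 on each side, 8 were higher in No.8 (beside 53.2% of all genes past the floor), 0 reached 2-fold and the median difference was 0.30 log2 units (0.04 for all genes past the floor). The nearest genes past the floor on either side were Pgm1 and Cachd1. Pgm1, which encodes a phosphoglucomutase, was at a log2 level of 7.50 in No.4 and 8.48 in No.8, and Cachd1 at 6.50 and 7.21. Ak4, an adenylate kinase gene, was at 6.10 and 7.04, whereas Jak1, the kinase gene between Cachd1 and Ak4, was at 9.13 and 8.59. Around Fzd1, 5 of 10 neighbours were higher in No.8 and the median was -0.02. Around Wnt5a, 5 of 10 were higher in No.8 and the median was 0.04, with the transketolase gene Tkt (11.38 and 9.42) the only neighbour at 2-fold, toward No.4. For Sfrp4 and for Lrp5, 5 of 10 were higher in No.8, with medians of 0.02 and 0.06. In each of these sets 1 neighbour reached 2-fold, Elmo1 by Sfrp4 (8.63 and 7.27) and Cpt1a by Lrp5 (6.64 and 7.76). DNA copy number was not measured, and its part in these values was not tested.

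**Figure D3:**
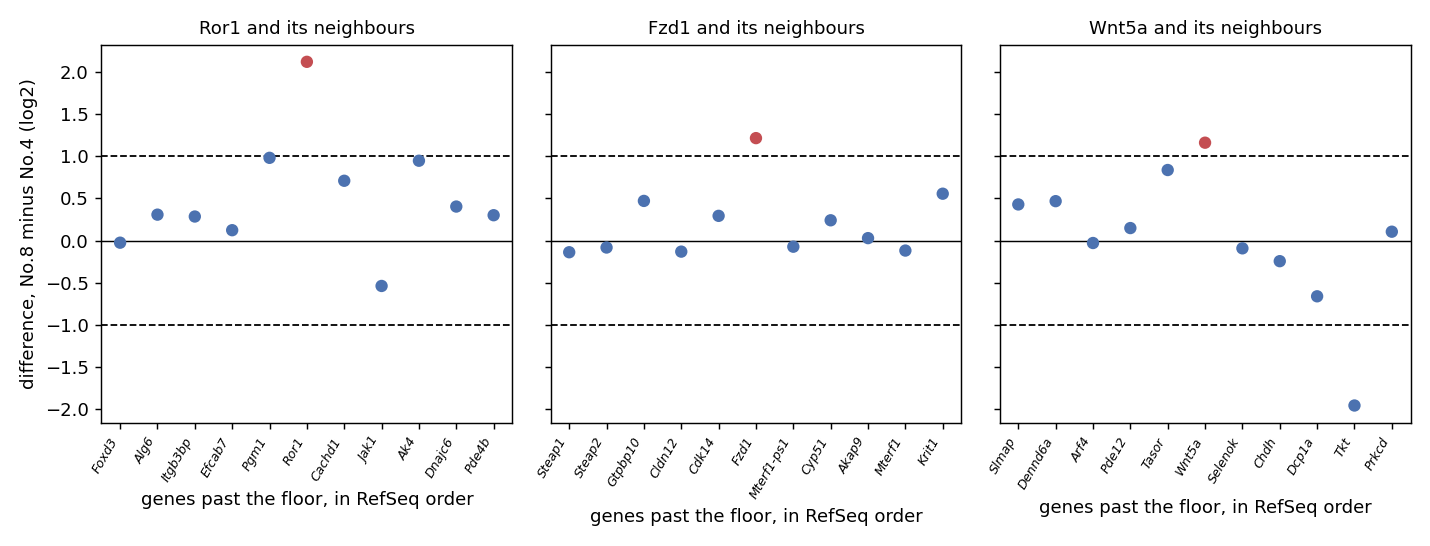
Difference between the colonies (No.8 minus No.4, log2, vertical axis) for Ror1, Fzd1 and Wnt5a (red) and the 5 nearest genes past the floor on each side (blue), in RefSeq order; the horizontal axis gives order only, not distance, and dashed lines mark 2-fold. Around Ror1, 8 of 10 neighbours lie above 0 and none above the dashed line, and around Fzd1 and Wnt5a 5 of 10 lie above 0.

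Markers of other lineages also differed between the colonies. Of the mural and fibroblast markers, Pdgfrb was at a log2 level of 6.48 in No.4 and 7.55 in No.8 and Col1a1 at 8.25 and 10.64, both higher in No.8 as Ror1 was. Tagln was at 3.92 and 5.45 and Myh11 at 4.27 and 4.34, all under 5.67. Neither colony had Dcn or Lum past the floor. Over the 3 mural markers measured, levels ran from 3.92 to 6.48 in No.4 and from 4.34 to 7.55 in No.8, and over the 4 fibroblast markers, which share Pdgfrb, from 2.40 to 8.25 and from 2.55 to 10.64. The 4 oligodendrocyte lineage markers ran from 4.93 to 10.24 in No.4 and from 4.22 to 9.53 in No.8. Olig2 was at 6.36 and 4.22, Cspg4 at 6.37 and 4.62 and Pdgfra at 10.24 and 9.53, all lower in No.8. Olig2 and Cspg4 passed 5.67 only in No.4, and Olig2 was below the floor in No.8. Counted from 5.67, their folds were at least 1.61 and 1.62. Mbp was close to equal at 4.93 and 4.89, under 5.67 in both colonies. Of the 3 neuron markers, Map2 was at 8.10 and 8.50, Rbfox3 at 4.68 and 4.76, and Tubb3 was below the floor in both. The part of these lineage differences in the Ror1 and Fzd1 values was not tested.

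Other genes of the pathway were followed through lists drawn up by their place in the pathway. Of 22 measured genes for receptor turnover and co-factors (the R-spondins, Lgr4 to Lgr6, Rnf43, Kremen and glypican genes among them), 13 were past the floor (59.1%, beside 60.9% of all genes) and 1 of these 13 reached 2-fold (7.69%, beside 5.47% of all genes past the floor). Both shares were near those of all genes. That gene was Notum, whose enzyme removes the lipid from Wnt ligands: its log2 level was 4.57 in No.4 and 5.89 in No.8, a 2.51-fold difference that came to at least 1.17-fold counted from 5.67. Of 27 genes of the planar polarity and calcium branches, 22 were past the floor and 0 reached 2-fold in either direction. The median differences over all measured genes of these lists were 0.06 and 0.07, beside 0.03 for all genes.

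Of the 34 genes that relay the signal from receptor to nucleus, 33 were past the floor, 0 were 2-fold higher in No.8 and 2 were 2-fold higher in No.4. The share of 6.06% was near the 5.47% of all genes past the floor. The first was Ctnnbip1, which encodes a protein that keeps beta-catenin from TCF factors, at a log2 level of 8.20 in No.4 and 7.18 in No.8 (2.03-fold). The second was Tle4, a corepressor gene of the Groucho family, at 4.82 and 3.12 (at least 1.40-fold counted from the floor, with no fold to give from 5.67). Ctnnb1, the beta-catenin gene itself, was at 9.41 and 10.30, higher in No.8 by 0.90 log2 units and so just under 2-fold. Only Ctnnbip1 of the relay genes at 2-fold was past 5.67 in both colonies.

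Of 9 measured genes that Wnt signalling induces as feedback, Dkk1 among them, 5 were past the floor and 2 reached 2-fold, in opposite directions (5.47% of all genes past the floor were 2-fold apart). Axin2, a scaffold of the beta-catenin destruction complex and a common readout of the pathway, was at a log2 level of 9.61 in No.4 and 8.33 in No.8 (2.42-fold higher in No.4). Notum is in this list too and was higher in No.8. Lef1, a transcription factor of the pathway, was at 8.61 and 8.95. Tcf7, another such factor, named after its values were seen, was at 6.26 and 6.94. Of the 9 genes, 6 were higher in No.8 (66.7%) and 3 in No.4, with a median difference of 0.11 log2 units. Over all measured genes 52.2% were higher in No.8 and the median was 0.03. The 9 include 4 genes below the floor in both colonies, whose directions were read near background.

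**Figure D4:**
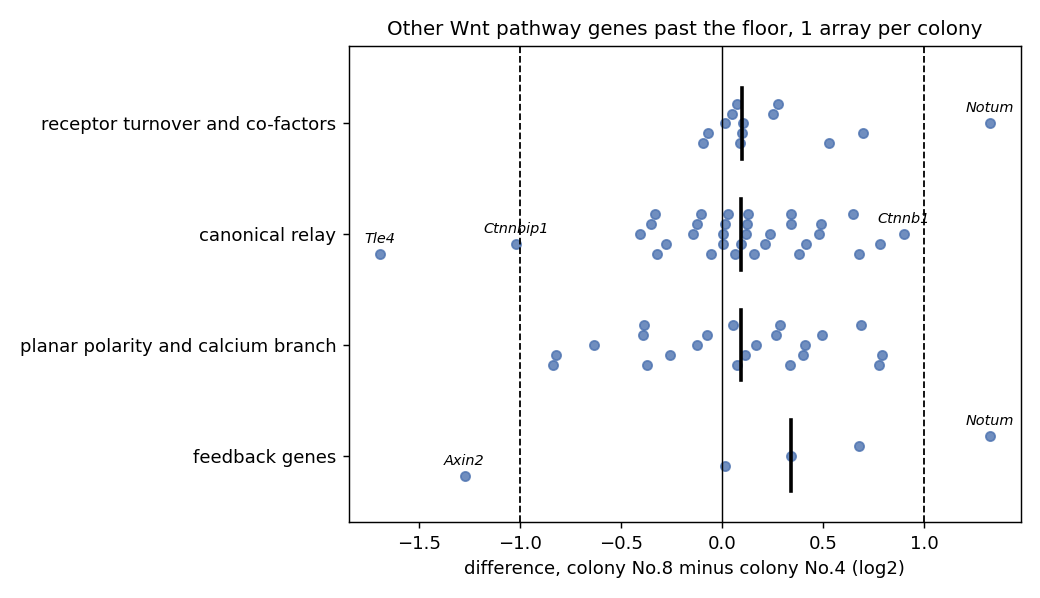
Difference between the colonies (No.8 minus No.4, log2, horizontal axis) for the genes past the floor in 4 lists of other Wnt pathway genes, 1 point per gene with vertical scatter for legibility only; the thick bar is the median of the list and dashed lines mark 2-fold. Notum lies beyond 2-fold toward No.8 and Axin2, Tle4 and Ctnnbip1 toward No.4, with Ctnnb1 at 0.90; Notum appears in 2 of the lists.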

How the data were processed

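Total RNA of 2 C6 colonies was measured on 1 whole-transcript array each; biotin-labelled cDNA was made with a GeneChip kit, per the labels' protocols. The authors deposited 1 log2 value per feature and colony for 36685 features. Base 2 was inferred from the values, which reach 13.34, and no source used here gives the software, background correction or normalization. The medians of the arrays were 4.34 and 4.31, and no further scaling was applied. Features with exactly 1 gene symbol in the platform annotation (18511) were used, and the feature with the highest mean level stood for a gene; each of the 44 members had 1 such feature. All 44 gene IDs were found in the RefSeq table of GRCr8, used for names and gene order; the annotation's own build is not stated. With 1 array per colony no test was run. The members and lists were chosen with earlier results of these data known. Every member past the floor is named with both levels. Pathway genes outside the members are given with levels if 2-fold apart, besides Ctnnb1, Axin2, Lef1 and the markers. Tcf7 was added after its values were seen. Promoter windows are from RefSeq (GRCr8). Protein sequences are not analysed here. Alternatives were other scalings, floors, feature choices, fold sizes and an offset of 64 on the linear scale. The counting steps were tested on simulated data. Python 3.11.15, pandas 2.3.3 and statsmodels 0.14.6 (loess) were used.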

Additional observations from a re-analysis of the deposited data

How the results depend on the processing

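The count of 3 members at least 2-fold higher in No.8 was 1, Ror1, with an offset of 64, with the floor at the upper quartile of all values (6.37), with levels raised to 5.67 and at 3-fold. With the floor at 5.67 it was 2, Ror1 and Fzd1. The count of 0 toward No.4 became 2 at 1.5-fold. The number of members past the floor, 26, became 9 with the floor at 6.37 and 12 with the floor at 5.67, also where levels were raised to 5.67. The median difference over all members, 0.16 log2 units, became 0.034 with the offset and 0 with levels raised to 5.67. Over the members past the floor it was 0.25, beside 0.04 over all genes past the floor. That value became 0.092 with the offset and 0.16 with the floor at 5.67, with or without raised levels. Of these 26 members, 6 passed the floor in No.8 only and 1 in No.4 only, which fixes their sign in this median. With the offset, the differences of Ror1, Fzd1 and Wnt5a were 1.09, 0.52 and 0.21; with levels raised to 5.67 they were 1.48, 0.53 and 0. Centring (which removed 0.03 log2 units), quantile normalization and the loess left the counts at 3 and 0. The mean over features and the use of features with several symbols could not change them. Each member had 1 feature of its own, and the only shared feature, of Lrp5 and Tvp23b, was dimmer than that of Lrp5. Of the alternatives, centring, quantile normalization and the loess could turn a sign, and none of these 3 turned one among the 26 members past the floor. With levels raised to 5.67, 14 of the 26 differences became 0. No paired analysis was possible because each colony has 1 array and the labels give no replicate numbers. Signal over each array's own background is not analysed here, so levels under 5.67 carry the least weight.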
